A study of Homo sapiens with 8 samples.

Results

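The collagen genes are the genes that encode the alpha chains of collagens, here every gene whose symbol in the array annotation is COL, a type number, A and a chain number. Of 22411 genes measured, 41 met this rule. COL3A1 and COL26A1 were read by probe sets shared with another symbol and COL17A1 was not among the genes with a symbol of their own, so these were not analysed here. RNA was measured in SK-N-MC, an established cell line of Ewing sarcoma, a tumour of bone and soft tissue. In 4 cultures the cells were transfected with combined YAP1 and TAZ siRNAs (WWTR1 is the gene of TAZ), and in 4 cultures with a non-targeting control siRNA. The siRNA concentration was 10 nM in all 8 cultures and RNA was taken at 72 h. The siRNA lowers the transcripts without removing them, and both groups come from the same cell line, so the values describe a partial loss in 1 line.

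Collagen chains wind around each other in threes, as identical or as different chains, and they are secreted as assembled trimers. Fibrillar collagens form the tension-bearing fibrils of bone, skin and tendon. FACIT collagens (fibril-associated collagens with interrupted triple helices) decorate those fibrils. The network collagen IV forms the sheets of basement membranes, and transmembrane collagens stay at the cell surface. YAP1 and TAZ are co-activators that act with TEAD transcription factors, are restrained by the Hippo kinases and respond to stiffness of the matrix around the cell. Several matrix genes are known targets of theirs in other cell types.

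The deposited values are log2 signals, so a difference of 1 is a change of 2-fold, and all differences below are YAP1/TAZ siRNA minus control siRNA. Array medians lay between 4.33 and 4.49. The siRNA targets were lower in every YAP1/TAZ siRNA culture. YAP1 read 6.27, 6.41, 6.42 and 6.40 in the YAP1/TAZ siRNA cultures, against 7.64, 7.72, 7.71 and 7.66 in the control cultures, and fell by 1.31 (limma adjusted p = 4.7e-05). WWTR1 read 5.74, 5.91, 5.91 and 5.86 in the YAP1/TAZ siRNA cultures, against 6.52, 6.39, 6.42 and 6.57 in the control cultures, and fell by 0.62 (limma adjusted p = 0.00898). YAP1/TAZ siRNA replicate 2 and control replicate 4 had the highest scores on component 1 of a principal component analysis of all genes (27.4 and 28.4, against −14.7 to 3.42 on the rest). They are called the arrays that stood apart, and they touch several values below. Of the Ewing sarcoma markers, 8 of 8 measured had a mean above the median level of all genes. None of 4 blood markers and none of 4 endothelial markers did, while 3 of 6 epithelial markers did (EPCAM, KRT8 and KRT18). The summed linear signal of the 6 ran from 561 to 785 in the YAP1/TAZ siRNA cultures and from 511 to 758 in the control cultures. With 4 arrays a group, array number sets the limit on precision.

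A collagen gene was called expressed where its mean over the 8 arrays was above the median of all genes (5.03), and dim otherwise. By this rule 14 collagen genes were expressed and 27 were dim. The expressed genes were the fibrillar COL1A1, COL1A2, COL5A1, COL5A2 and COL27A1, the basement membrane COL4A1 and COL4A2, the beaded-filament COL6A1 and COL6A2, the FACITs COL14A1, COL16A1 and COL19A1, and the transmembrane COL13A1 and COL23A1. COL19A1 (5.04) and COL27A1 (5.07) lay just above the line, and COL25A1 (4.81) and COL7A1 (4.80) were the nearest below it. A second transcript cluster of COL27A1, not used here, had a mean of 4.41, below the line. No measure of background came with the values, so a dim gene may be little or not at all above it.

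COL5A2 was much lower in the YAP1/TAZ siRNA cultures, COL1A2 and COL16A1 were a little lower, and the other collagen genes differed by at most 0.10 in either direction. With limma, adjusted over all genes, 0 of 41 collagen genes passed the threshold of 0.05, against 0.214% of all genes and 0.411% of the expressed ones, and COL5A2 just missed it. At an unadjusted p under 0.05 there were 2, COL5A2 and COL16A1, both lower, where 3.19% of all genes and 3.62% of the expressed ones were lower at that p, and 10.3% of all genes differed in either direction. In 3 genes, COL5A2, COL16A1 and COL9A3, every YAP1/TAZ siRNA culture lay below every control culture, beside 2.03% of all genes. In 0 did every YAP1/TAZ siRNA culture lie above, beside 4.19% of all genes. The 41 differences had a median of −0.02, and 27 of them were negative. Over all genes the median was 0.01, and 46.1% were negative. Over the 14 expressed collagen genes the median was −0.02, with 9 below 0 and 5 above. Over the 11202 expressed genes it was 0.05, with 34.9% below 0. Of the 27 dim collagen genes 18 were below 0, with a median of −0.0175. Dim genes as a whole also leaned that way, with 57.4% below 0 and a median of −0.015.

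**Figure D1:**
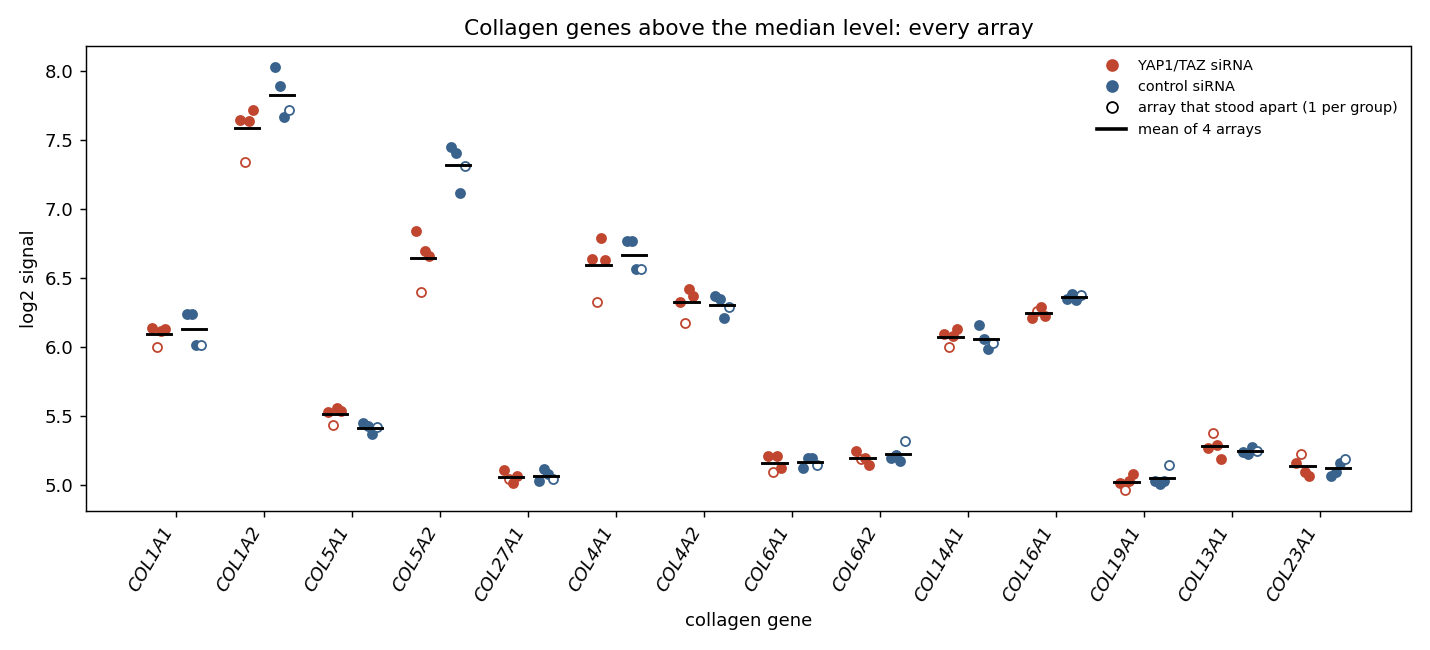
Log2 signal (y axis) of the 14 expressed collagen genes (x axis) on each of 8 arrays, with YAP1/TAZ siRNA in red to the left of control siRNA in blue. Black bars are means of 4 arrays and open points are the 2 arrays that stood apart. The 4 YAP1/TAZ siRNA points lie below the 4 control points for COL5A2 and COL16A1, and the points overlap for the other 12 genes.

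COL5A2 encodes the alpha2 chain of collagen V, which is built into collagen I fibrils and limits their width, and it had the largest difference of any collagen gene. Its log2 signal was 6.84, 6.40, 6.70 and 6.66 in the YAP1/TAZ siRNA cultures, against 7.45, 7.41, 7.12 and 7.31 in the control cultures. Each YAP1/TAZ siRNA culture lay below each control culture. The means were 6.65 ± 0.18 with YAP1/TAZ siRNA and 7.32 ± 0.15 with control siRNA (SD, n = 4 each), a difference of −0.67 (SE 0.11, limma 95% interval −0.91 to −0.43), or −37.3% on the linear scale. The limma adjusted p was 0.0548. The 2-sided exact permutation p was 0.0286, the smallest that 4 cultures against 4 can give. It follows from the lack of overlap, and COL16A1 and COL9A3 had the same p. Among all genes tested, 28 of 22411 had a lower difference. YAP1/TAZ siRNA replicate 2, an array that stood apart, was the lowest of the 8. The difference was −0.91 within the pair of arrays that stood apart and −0.59 within the other 6. COL5A2 passed in 5 of 18 alternatives, in each of which more of all genes passed too. The limma adjusted p was 0.0376 without YAP1/TAZ siRNA replicate 2 (0.741% of all genes passed) and 0.0188 with the arrays that stood apart as a block (1.96%). It was 0.0468 after quantile normalization (0.321%), 0.0347 with dim genes left out (0.732% of the genes tested) and 0.0101 with array weights (2.49%). Over all 18 alternatives it ran from 0.0101 to 0.247.

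COL5A1, the alpha1 chain that pairs with COL5A2 in collagen V, did not move with it. Its log2 signal was 5.53, 5.44, 5.56 and 5.54 in the YAP1/TAZ siRNA cultures, against 5.45, 5.43, 5.37 and 5.42 in the control cultures. The groups overlapped in YAP1/TAZ siRNA replicate 2 alone, which lay below control replicate 1. The difference was 0.10 (SE 0.049, 95% interval −0.01 to 0.21), with a limma adjusted p of 0.542. COL5A3, the third chain of collagen V, was dim and differed by 0.01 (95% interval −0.09 to 0.11).

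COL1A2, the alpha2 chain of collagen I, the main collagen of bone and skin, was lower on average with overlapping groups. It read 7.65, 7.34, 7.64 and 7.72 in the YAP1/TAZ siRNA cultures, against 8.03, 7.89, 7.67 and 7.72 in the control cultures. YAP1/TAZ siRNA replicate 2 gave the lowest value, and YAP1/TAZ siRNA replicate 4 equalled control replicate 4 and exceeded control replicate 3. The difference was −0.24 (SE 0.11, 95% interval −0.48 to 0.00055; limma unadjusted p = 0.0504, adjusted p = 0.486). Without YAP1/TAZ siRNA replicate 2 it was −0.16, and without control replicate 1 it was −0.17.

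COL1A1, the alpha1 chain of collagen I, showed no such difference. Its values were 6.14, 6.0, 6.12 and 6.13 in the YAP1/TAZ siRNA cultures, against 6.24, 6.24, 6.02 and 6.02 in the control cultures. The control cultures fell into 2 pairs on either side of most of the YAP1/TAZ siRNA values. The difference was −0.03 (SE 0.072, 95% interval −0.20 to 0.13), and limma's adjusted p was 0.937. COL27A1, a minor fibrillar collagen of cartilage, differed by −0.01 (95% interval −0.11 to 0.10). The 5 dim fibrillar genes, COL2A1, COL5A3, COL11A1, COL11A2 and COL24A1, ranged from −0.03 to 0.01. Across the 10 fibrillar genes 8 were below 0 and 2 above, with a median of −0.02. Below 0 were 46.1% of all genes and 57.4% of all dim genes.

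Whether chains of a shared trimer or promoter changed unequally was tested on the difference of their log2 signals in each culture, for 10 pairs. The COL5A2 minus COL5A1 difference was 1.31, 0.96, 1.14 and 1.12 in the YAP1/TAZ siRNA cultures, against 2.0, 1.98, 1.75 and 1.89 in the control cultures, and these did not overlap. The pair therefore shifted by −0.77 (2-sided exact permutation p = 0.0286, 0.143 adjusted over the 10 pairs). COL1A2 minus COL1A1 was 1.51, 1.34, 1.52 and 1.59 in the YAP1/TAZ siRNA cultures, against 1.79, 1.65, 1.65 and 1.70 in the control cultures. It shifted by −0.21, also without overlap (exact permutation p = 0.0286, adjusted p = 0.143). For this pair the exact permutation p was 0.0571 without any 1 of the 4 control arrays, with shifts of −0.22 to −0.18. That of COL5A2 minus COL5A1 was 0.0286 with any 1 array left out. The groups stayed without overlap in both pairs with any 1 array left out. In both collagen I and collagen V it was the alpha2 chain that was lower relative to its partner. In both it was also the brighter chain. The mean signals were 7.71 for COL1A2 and 6.11 for COL1A1, and 6.99 for COL5A2 and 5.47 for COL5A1. Array differences tend to be compressed near the lower end, and the part of signal level in these shifts was not tested. The other 8 pairs overlapped, with shifts from −0.06 to 0.09. Of these only COL4A2 minus COL4A1 and COL6A2 minus COL6A1 had both chains expressed. The rest held a dim chain, which may be little or not at all above background, so their small shifts tell little. With 0.0286 as the smallest p, at least 6 of the 10 pairs would have to reach it for any to pass after adjustment, so the adjusted values cannot settle single pairs.

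**Figure D2:**
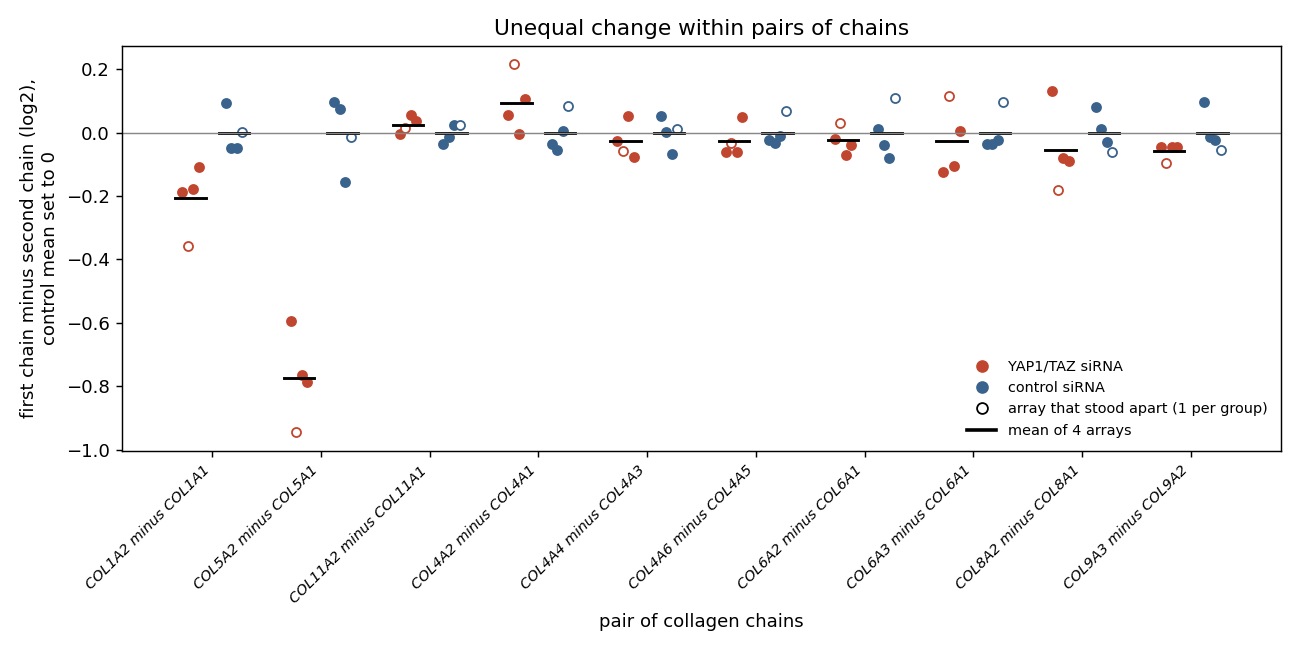
Log2 signal of the first chain minus the second (y axis), shifted so that the control mean is 0, for 10 pairs of chains (x axis) on each array, with YAP1/TAZ siRNA in red to the left of control siRNA in blue. Black bars are means of 4 arrays and open points are the arrays that stood apart. COL5A2 minus COL5A1 is centred at −0.77 and COL1A2 minus COL1A1 at −0.21 with YAP1/TAZ siRNA, and in the other pairs the points overlap. Of those other pairs, only COL4A2 minus COL4A1 and COL6A2 minus COL6A1 have both chains expressed.

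COL16A1 encodes a FACIT collagen found near fibrils and microfibrils, and its decrease was small against very tight replicates. It read 6.21, 6.26, 6.29 and 6.23 in the YAP1/TAZ siRNA cultures, against 6.35, 6.39, 6.34 and 6.38 in the control cultures. The groups did not overlap, as was so for 2.03% of all genes in this direction. The difference was −0.12 (SE 0.045, 95% interval −0.22 to −0.02), or −7.82% on the linear scale, with a limma unadjusted p of 0.0291 and an adjusted p of 0.405. It was −0.12 both within the pair of arrays that stood apart and within the other 6. The RefSeq promoter table holds 30 of the 41 genes and lists COL16A1, whose 250 bases before the start are shown because it is the only expressed collagen gene without overlap that has an entry. They lie at chr1:31704018-31704267 on the minus strand of GRCh38.p14 and hold 16 CG steps.
COL16A1: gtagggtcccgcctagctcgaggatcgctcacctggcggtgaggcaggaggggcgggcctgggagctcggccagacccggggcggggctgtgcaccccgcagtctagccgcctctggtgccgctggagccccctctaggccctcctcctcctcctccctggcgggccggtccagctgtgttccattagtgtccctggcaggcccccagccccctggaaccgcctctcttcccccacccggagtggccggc
Neither GGAATG, the core letters of the TEAD motif, nor TGANTCA, those of AP-1, was present on either strand, and so no base is in capitals. GGAATG was in 1 of the 30 collagen promoters, that of COL12A1, and in 11.9% of 27305 promoters of that length. TGANTCA was in 0 of the 30 and in 6.60% of all. COL5A2, COL1A2, COL1A1 and COL6A1 have no entry and are not among the 30. The counts describe the letters of these windows and say nothing of binding.

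The other FACIT genes differed little. COL14A1, which binds fibrils in skin and tendon, read 6.10, 6.0, 6.08 and 6.13 in the YAP1/TAZ siRNA cultures, against 6.16, 6.06, 5.99 and 6.03 in the control cultures, and the groups overlapped (difference 0.02, 95% interval −0.11 to 0.15). COL19A1 differed by −0.03 (95% interval −0.15 to 0.09). The dim COL9A3, a chain of the cartilage collagen IX, was also lower in every YAP1/TAZ siRNA culture. It read 4.76, 4.77, 4.74 and 4.75 there, against 4.82, 4.79, 4.80 and 4.83 in the control cultures. Its difference was only −0.06 (95% interval −0.15 to 0.04, limma adjusted p = 0.748). Its partners COL9A1 and COL9A2 differed by −0.02 and 0.0025. The 7 dim FACIT genes ranged from −0.06 to 0.0025. Of all 10 FACIT genes 8 were below 0, beside 46.1% of all genes and 57.4% of all dim genes.

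COL4A1 and COL4A2 encode the ubiquitous chains of basement membrane collagen IV and are transcribed in opposite directions from a shared promoter. COL4A1 read 6.64, 6.33, 6.79 and 6.63 in the YAP1/TAZ siRNA cultures, against 6.77, 6.77, 6.57 and 6.57 in the control cultures. COL4A2 read 6.33, 6.18, 6.42 and 6.37 in the YAP1/TAZ siRNA cultures, against 6.37, 6.35, 6.21 and 6.29 in the control cultures. For both genes YAP1/TAZ siRNA replicate 2 was the lowest of the 8 arrays and YAP1/TAZ siRNA replicate 3 the highest. The difference was −0.07 for COL4A1 (95% interval −0.30 to 0.16) and 0.02 for COL4A2 (95% interval −0.13 to 0.17). COL4A1 had 0.017 without YAP1/TAZ siRNA replicate 2, and COL4A2 had −0.012 without control replicate 3 or YAP1/TAZ siRNA replicate 3, so neither sign held. The 126 bases between the starts of this pair are printed because the pair shares them. They lie at chr13:110307158-110307283 of GRCh38.p14, on the plus strand as COL4A2 is read, and the capitals mark CCAAT, the letters bound by NF-Y.
COL4A1 and COL4A2, between the starts: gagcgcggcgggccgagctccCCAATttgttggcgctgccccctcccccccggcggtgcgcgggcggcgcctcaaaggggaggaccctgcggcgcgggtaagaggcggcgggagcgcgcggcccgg
CCAAT occurred once in this stretch, and none of GGAATG (TEAD), TGANTCA (AP-1) or TATAAA (the TATA box) did. CCAAT was in 8 of the 30 collagen windows and in 33.0% of all windows of 250 bases, and TATAAA was in 4 of the 30 and in 11.1% of all. The other divergent pairs, COL4A3 with COL4A4 and COL4A5 with COL4A6, whose chains form the collagen IV of kidney and other specialised membranes, were dim. Those 4 genes differed by −0.03 to −0.005.

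The beaded-filament collagen VI was close to the expressed line and nearly equal between groups. COL6A1 read 5.21, 5.10, 5.21 and 5.13 in the YAP1/TAZ siRNA cultures, against 5.13, 5.20, 5.20 and 5.15 in the control cultures. COL6A2 read 5.25, 5.19, 5.20 and 5.15 in the YAP1/TAZ siRNA cultures, against 5.20, 5.22, 5.18 and 5.32 in the control cultures. Both overlapped, with differences of −0.01 (95% interval −0.12 to 0.11) and −0.03 (95% interval −0.15 to 0.09). COL6A3, the third chain of the common form, was dim at 4.36 ± 0.057 with YAP1/TAZ siRNA and 4.40 ± 0.061 with control siRNA (SD, n = 4 each).

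The transmembrane collagens COL13A1, COL23A1 and COL25A1, whose ectodomains can be shed from the cell surface, all had differences just above 0. COL13A1 read 5.27, 5.38, 5.29 and 5.19 in the YAP1/TAZ siRNA cultures, against 5.24, 5.23, 5.28 and 5.25 in the control cultures. The highest of these was again YAP1/TAZ siRNA replicate 2. The 3 differences were 0.03, 0.01 and 0.03, each with an interval that spans 0. The remaining classes held dim genes only. The multiplexins COL15A1 and COL18A1, of which COL18A1 is the source of endostatin, differed by −0.02 and 0.01, and COL7A1, the anchoring fibril collagen of skin, by 0.03. The short-chain genes COL8A1, COL8A2 and COL10A1 ranged from −0.05 to 0.08, the last being COL10A1 of hypertrophic cartilage (95% interval −0.08 to 0.24). COL28A1 differed by 0.0025.

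**Figure D3:**
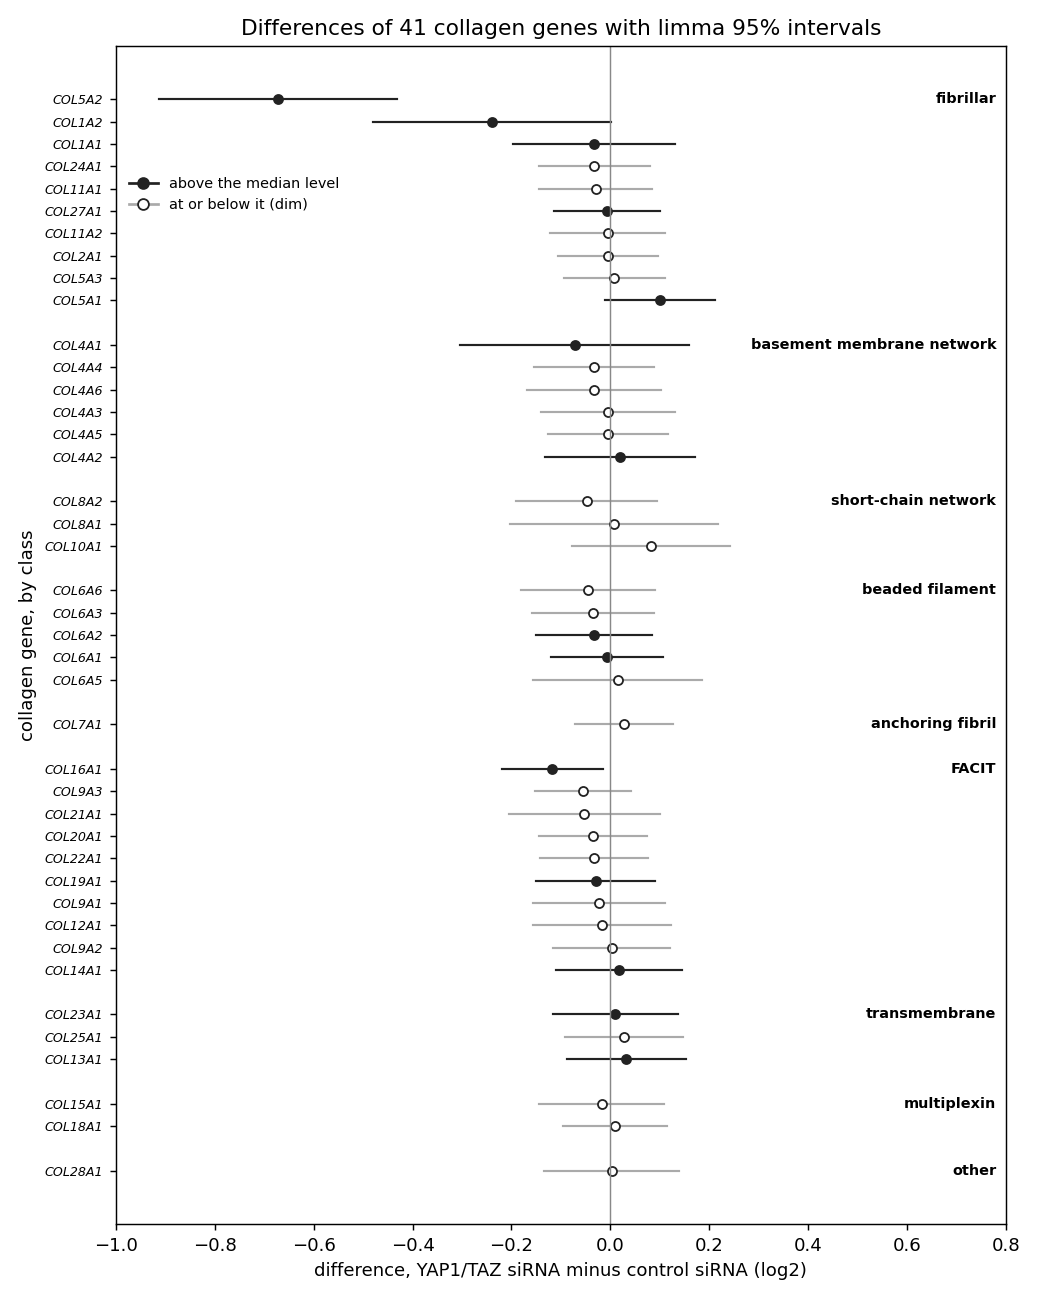
Difference in log2 signal, YAP1/TAZ siRNA minus control siRNA (x axis), of the 41 collagen genes (y axis, grouped by class), with limma 95% intervals as bars. Filled points are expressed genes and open points dim genes. Only the intervals of COL5A2 and COL16A1 lie wholly below 0, and none lies wholly above it.

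The 27 dim genes had differences from −0.06 to 0.08, all under 0.1 in size, as had 74.2% of all dim genes. Their 95% intervals reached no further than −0.21 and 0.24. With ties not counted, on YAP1/TAZ siRNA replicate 2, 24 of the 27 had their highest value of the 4 YAP1/TAZ siRNA arrays, beside 56.4% of all dim genes. Expressed collagen genes went the other way there, with 9 of 14 at their lowest on that array, beside 56.7% of all expressed genes. On control replicate 4, 14 of the 27 dim genes had their highest value of the 4 control arrays, beside 45.7% of all dim genes, and 0 of the 14 expressed genes had their lowest there alone, beside 46.8% of all expressed genes. COL1A1 and COL4A1 had their lowest control value on both control replicates 3 and 4. The part of this array in the collagen differences was not tested beyond the values without it given above.

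**Figure D4:**
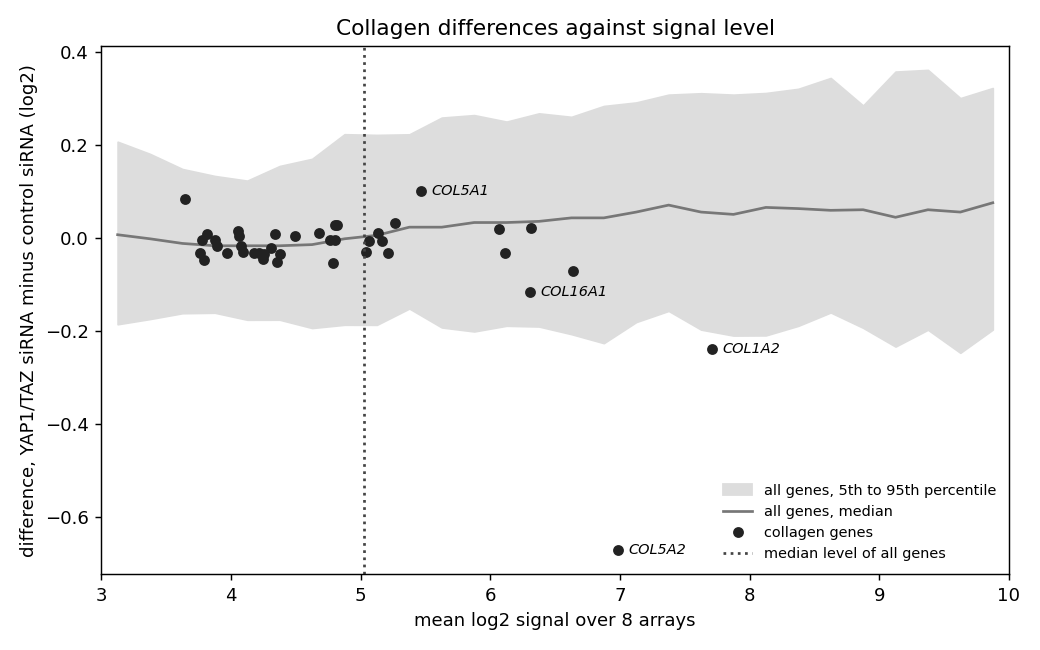
Difference in log2 signal (y axis) against mean log2 signal over 8 arrays (x axis) for the 41 collagen genes, with the median and the 5th to 95th percentile of all genes in steps of 0.25 of level in grey. The dotted line is the median level of 5.03. COL5A2 at −0.67 lies far below the grey band, COL1A2 at −0.24 just below it, and the other collagen genes inside it.

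Genes that make, process, bind or degrade collagen were counted from 4 lists. Of 68 measured, 1 passed limma over all genes, LOX, which fell, as did 0.0803% of all genes by that test. Of the 68, 40 were below 0 and 27 above, with a median of −0.03, beside 46.1% of all genes below 0. LOX, the lysyl oxidase that cross-links fibrillar collagens, read 8.11, 7.96, 8.20 and 7.94 in the YAP1/TAZ siRNA cultures, against 8.71, 8.75, 8.44 and 8.75 in the control cultures, without overlap. Its difference was −0.61 (SE 0.090, limma adjusted p = 0.046). The call held without control replicate 3 and without YAP1/TAZ siRNA replicate 2, and was lost without any of the other 6 arrays (adjusted p = 0.0965 to 0.19). Over all 18 alternatives its limma adjusted p was under 0.05 in 7 and ran from 0.0117 to 0.281. It was 0.0759 with each array centred on its median and 0.0673 without both arrays that stood apart.

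Of 29 synthesis and secretion genes 0 passed limma over all genes, with 13 below 0 and 16 above and a median of 0.01, and 2 had an unadjusted p under 0.05, beside 10.3% of all genes. SERPINH1, the collagen chaperone HSP47, differed by −0.39 (SE 0.15, adjusted p = 0.419), and PLOD1, a lysyl hydroxylase, by −0.31 (SE 0.13, adjusted p = 0.46). SERPINH1 read 7.55, 7.08, 7.43 and 7.40 in the YAP1/TAZ siRNA cultures, against 8.02, 7.98, 7.51 and 7.49 in the control cultures, so its groups overlapped. CREB3L1, a membrane-bound activator of collagen I transcription in bone, differed by −0.16 (adjusted p = 0.507) and was dim. MIA3, which loads procollagen into vesicles, differed by −0.16 (adjusted p = 0.524). Among 14 processing and cross-linking genes 7 were below 0 and 7 above, with a median of −0.01. PCOLCE, which speeds removal of the procollagen C-propeptide, was lower in every YAP1/TAZ siRNA culture, with 6.31, 6.37, 6.41 and 6.27 against 6.62, 6.54, 6.52 and 6.49 in the control cultures (difference −0.20, SE 0.054, limma adjusted p = 0.202). FURIN differed by 0.10 (adjusted p = 0.707) and ADAMTS2, which removes the N-propeptide, by −0.07 (adjusted p = 0.742).

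Of 18 receptors and binding proteins 0 passed limma, beside 0.214% of all genes, and 7 were above the median level. Of the 18, 16 were below 0 and 2 above, and the median was −0.06. Below 0 were 46.1% of all genes and 57.4% of all dim genes. SPARC, a secreted glycoprotein that binds collagen, read 11.28, 10.99, 11.30 and 11.41 in the YAP1/TAZ siRNA cultures, against 12.06, 12.11, 11.69 and 11.87 in the control cultures. These did not overlap, and the difference was −0.69 (SE 0.12, limma adjusted p = 0.0702). The adjusted p of SPARC was under 0.05 in 3 of 18 alternatives (range 0.0176 to 0.323), in each of which more of all genes passed too. It was 0.0449 with dim genes left out (0.732% of the genes tested passed) and 0.0176 with array weights (2.49%). With the arrays that stood apart as a block it was 0.0214 (1.96%). LUM, lumican, a leucine-rich proteoglycan of collagen fibrils, was also lower in every YAP1/TAZ siRNA culture, with 6.23, 6.29, 6.53 and 6.67 against 6.80, 6.76, 7.04 and 7.28 in the control cultures (difference −0.54, SE 0.14, limma adjusted p = 0.185). DDR2, a receptor tyrosine kinase that fibrillar collagen activates, differed by −0.05 (adjusted p = 0.964). ITGA1 differed by 0.17 (adjusted p = 0.522) and FMOD, fibromodulin, by −0.11 (adjusted p = 0.542).

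Of 7 collagen-degrading proteases 0 passed, beside 0.214% of all genes. More were below 0 (4) than above (2), with a median of −0.035, while the 2 largest differences were upward. CTSK, the cathepsin K that cleaves collagen in bone resorption, read 8.32, 8.14, 8.29 and 8.41 in the YAP1/TAZ siRNA cultures, against 7.96, 7.93, 7.88 and 7.83 in the control cultures. It was higher in every YAP1/TAZ siRNA culture, by 0.39 (SE 0.067, limma adjusted p = 0.0714). Its adjusted p was under 0.05 in 5 of 18 alternatives (range 0.00814 to 0.326), in each of which more of all genes passed too. Without both arrays that stood apart it was 0.0337, where 188 of 22411 genes passed, against 48 with all arrays. MMP13, a collagenase, was dim and read 4.46, 4.93, 5.09 and 4.81 in the YAP1/TAZ siRNA cultures, against 4.46, 4.40, 4.44 and 4.51 in the control cultures (difference 0.37, adjusted p = 0.317). MMP8, another collagenase, differed by −0.12 (adjusted p = 0.593), and the gelatinase MMP2 by −0.14 (adjusted p = 0.694).

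**Figure D5:**
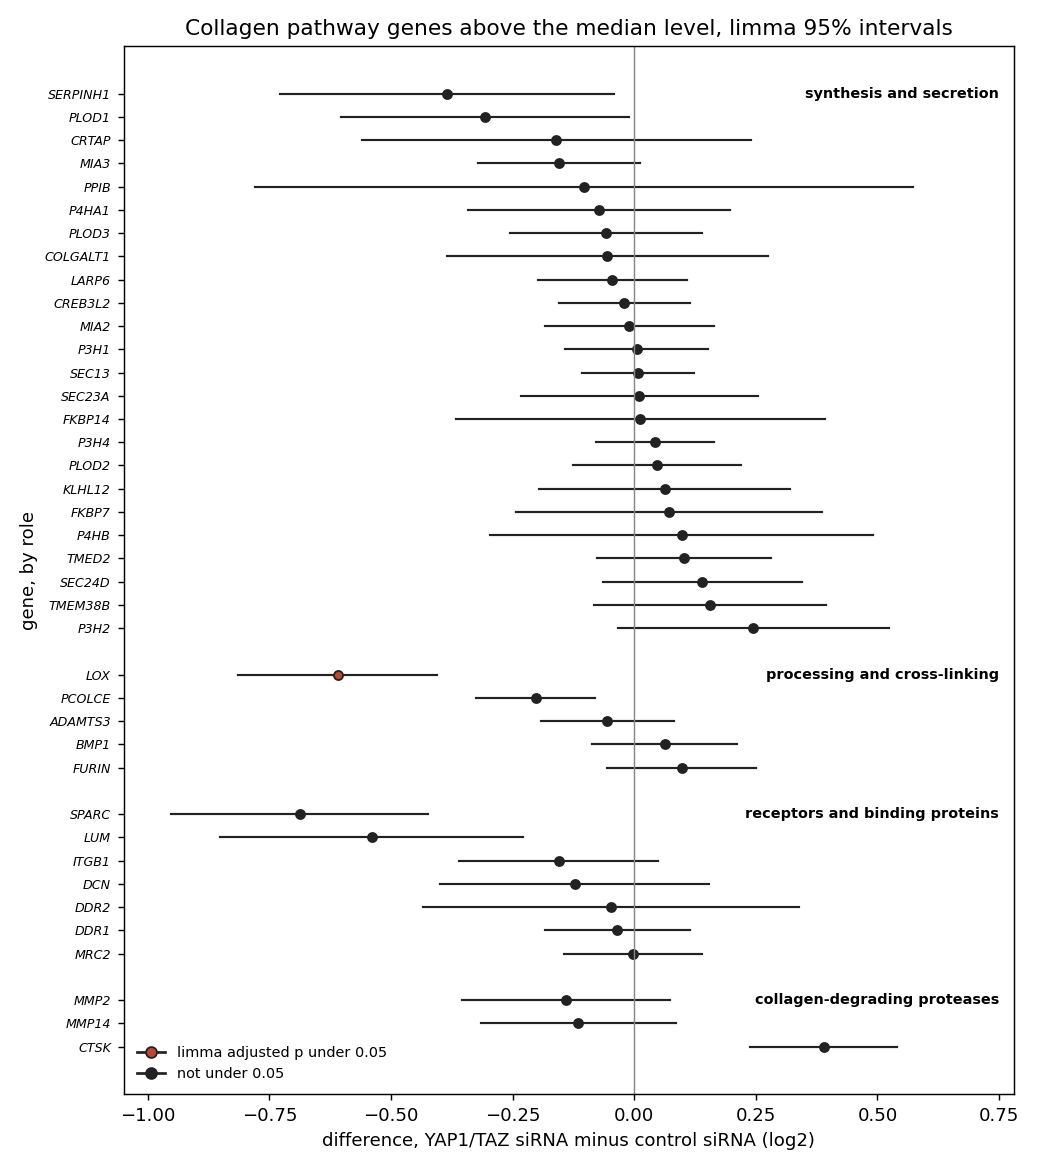
Difference in log2 signal, YAP1/TAZ siRNA minus control siRNA (x axis), of the 39 collagen pathway genes above the median level (y axis, grouped by role), with limma 95% intervals as bars. The red point, LOX at −0.61, is the only gene with a limma adjusted p under 0.05, and SPARC at −0.69, LUM at −0.54 and CTSK at 0.39 are the largest of the others.

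Collagen genes are also markers of fibroblasts, so that cell type's markers are given beside them. Of 10 fibroblast and mesenchymal markers 5 were above the median level, namely THY1, DCN, LUM, FAP and PRRX1, while PDGFRA, PDGFRB, POSTN, TCF21 and TWIST2 were dim. Their summed linear signal ran from 754 to 910 in the YAP1/TAZ siRNA cultures and from 771 to 974 in the control cultures. By limma 0 of the 10 passed over all genes, and LUM and FAP were lower while THY1 and PRRX1 were higher at an unadjusted p under 0.05, where 10.3% of all genes differed in either direction. In bulk RNA, fewer cells of a type and less RNA per cell cannot be told apart, and the part of these markers in the collagen values was not tested.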

How the data were processed

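Whole-transcript arrays (GeneChip WT PLUS labelling, per the labels) measured RNA of 8 SK-N-MC cultures. The series' design text calls the 4 cultures of a group biological replicates that were handled in parallel, so spreads do not cover separate experiments. The authors deposited 1 log2 signal for each transcript cluster (about 1 gene). Per the submitters' processing notes they used Transcriptome Analysis Console, whose version and normalization, like the genome build, were not given in the sources here. Their range, 2.27 to 19.93, is the basis for taking the scale as log2. Summarising many probes tends to compress differences, above all near the lower end.

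Of 67528 clusters, 23781 had 1 gene symbol and were used, with symbols updated through RefSeq (GRCh38.p14). For 528 genes with several clusters, among them COL11A2 and COL27A1, that with the highest mean was taken, leaving 22411 genes. The test was limma (version 3.58.1, R 4.3.3; functions lmFit and eBayes, 6 residual and 2.78 prior degrees of freedom), Benjamini-Hochberg adjusted over all genes with a threshold of 0.05. Single values were tested with 2-sided exact permutation tests over arrays. The members, classes, lists and alternatives were chosen with earlier results of these data known. Every collagen gene could be named. Other pathway genes were named where they passed limma, and otherwise the 4 of a list with the smallest p. DDR2 and the markers were named after their values were seen. Alternatives covered normalization, centring, dim genes, clusters, variance model, array weights, the replicate block, each array left out and the arrays that stood apart. Promoters were taken from RefSeq (GRCh38.p14) and searched on both strands for the 4 motifs the report spells out, in the 250 bases before the start.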

Additional observations from a re-analysis of the deposited data

Results flagged for a closer look

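In groups of 4 arrays, an array was singled out where its gap to the nearest other array, divided by the group's range, passed Dixon's 95% critical value. Of 82 groups (41 collagen genes in both siRNA groups) 6 were singled out, and chance gives about 1 in 20. The share of all genes singled out by this rule is not given here, so the 6 do not set the collagen genes apart. Of the 6, 5 were YAP1/TAZ siRNA replicate 2 and 1 was control replicate 4, the arrays that stood apart over all genes. On YAP1/TAZ siRNA replicate 2 COL1A1 read 6.0, against 6.12 to 6.14 on the other 3, and was the only one of the 5 that lay low. COL4A5 read 3.87 there against 3.73 to 3.74, and COL7A1 read 4.86 against 4.80 to 4.81. COL12A1 read 4.03 against 3.82 to 3.84, and COL15A1 read 4.18 against 4.02 to 4.04. On control replicate 4 COL19A1 read 5.15, against 5.01 to 5.03 on the other 3.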

How the results depend on the processing

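The count of collagen genes called was 0 in limma's test as reported and in 13 of 18 alternatives. It was 1 after quantile normalization, 1 with dim genes left out, 1 with array weights and 1 with the arrays that stood apart as a block, and 0 to 1 when 1 array was left out. In each the gene was COL5A2, whose difference ran from −0.74 to −0.59 over all 18. At an unadjusted p under 0.05 the count was 1 to 4. All-gene calls, 48 with all arrays, were 3 with the replicate block, 16 with every cluster tested, 25 with each array centred on its median, 72 after quantile normalization, 82 with dim genes left out, 188 without both arrays that stood apart, 439 with them as a block, 559 with array weights, and 12 to 166 with 1 array left out. The median over the collagen genes ran from −0.04 to −0.0025 and over the expressed ones from −0.03 to 0.0012, each moving from the value with all arrays by less than the spread between arrays (SD 0.029 and 0.042). COL16A1 (−0.13 to −0.11), COL1A2 (−0.29 to −0.16) and COL5A1 (0.08 to 0.13) kept their sign and stayed above the threshold in all 18. With 1 array left out, COL1A1 ran from −0.069 to 0.0042, the high end without control replicate 1 or 2. COL4A1 ran from −0.137 to 0.017, the high end without YAP1/TAZ siRNA replicate 2. COL4A2 ran from −0.012, without control replicate 3 or YAP1/TAZ siRNA replicate 3, to 0.068. The cause was not tested. With the replicate block, COL5A2 had −0.67 (limma adjusted p = 0.247), LOX an adjusted p of 0.281, and 0 collagen genes were called. Same-numbered arrays did not deviate together except for replicate 1 (correlations 0.37, −0.47, 0.02 and −0.39 for replicates 1, 2, 3 and 4). Replicates 2 and 4 each hold an array that stood apart. Only 2 of 8 arrays correlated best with their own number, so the numbers were not taken as pairs. No pair of chains passed after adjustment in any of 11 alternatives. With dim genes left out, the median over all 41 genes, COL9A3 and MMP13 have no value.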
